A study of Rattus norvegicus with 12 samples.

Results

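Complement is a cascade of plasma and tissue proteins that marks damaged cells and microbes and draws in leukocytes. It was followed here at the level of RNA in 8 genes across Sham, MI and iCarP+/Light+ hearts. They comprise the C1q chains C1qa, C1qb and C1qc, the components C2, C3 and Cfb, and the receptors C3ar1 and C5ar1. The genes were taken by symbol from the count table, where they filled 9 of 34599 rows because Cfb is listed at a pair of loci. Of the 8 genes, 7 passed the filter on low counts, as did 15101 genes in all, and Cfb had no counts in any rat.

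Total RNA came from the infarct region of the left ventricle of 12 rats, collected 1 day after surgery, with 4 rats per group. The animals were male Sprague-Dawley rats. Their age is stated, as that of young rats, under the illumination tests and not under the infarct model. Sham rats had the chest opened without ligation and MI rats had the left anterior descending coronary artery ligated and received no patch. iCarP+/Light+ rats had the same ligation, and live Chlorella, a green alga that releases oxygen under light, was then injected into the infarcted ventricle. The photonic patch iCarP was glued to their epicardium with the adhesive CCS@gel and lit. Alga, patch, adhesive and light therefore came together in this group, and RNA of rats with an unlit patch was not analysed here. Each rat is a separate animal. No batch is labelled, so a batch that followed the groups cannot be told apart from treatment.

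C1q is the recognition molecule of the classical pathway and is made largely by macrophages. Once C1q is bound, C2 is cut and joins cleaved C4 as an enzyme that splits C3, while factor B, the product of Cfb, forms the corresponding enzyme of the alternative pathway. Splitting of C3 releases C3a, the ligand of the receptor encoded by C3ar1, and the later splitting of C5 releases C5a, the ligand of the receptor encoded by C5ar1. The liver makes most plasma C3, and leukocytes and stromal cells can also transcribe it.

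The depth of the 12 libraries ran from 14064414 to 17136958 counted reads. Values below are CPM, each gene's share of the counts of a library scaled to a fixed total after TMM, the method of edgeR that corrects library totals for composition. A count of 3, taken as the floor, corresponds to 0.175 to 0.213 CPM and covers counting error only. Each of the 7 measured genes lay above it in every rat. Values per rat are given in the order of the sample names, rats 1, 2, 3 and 5 in Sham, 1, 3, 4 and 5 in MI, and 1, 2, 4 and 5 in iCarP+/Light+, and these numbers do not pair rats between groups. In Sham rats mitochondrial genes held 22.8% to 28.9% of the counts and TMM factors were 0.784 to 0.856. MI rats had 8.52% to 11.5% and factors of 1.15 to 1.26, and iCarP+/Light+ rats had 7.14% to 14.2% and factors of 0.960 to 1.05. Differences were tested with edgeR's quasi-likelihood test, with Benjamini-Hochberg adjustment over the 15101 genes and a threshold of 0.05. Because the tissue is bulk, fewer cells of a type and less RNA per cell cannot be told apart.

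The genes responded in different ways to ligation and to treatment. In MI compared with Sham rats, C2, C3, C3ar1 and C5ar1 rose, and no C1q chain passed the test. This makes 4 of 7 called higher, where 30.2% of all genes tested were called higher, and 0 of 7 called lower, where 33.6% of all genes were. At an unadjusted p below the threshold, C1qc was the only C1q chain to pass (unadjusted p = 0.0491, edgeR). In iCarP+/Light+ compared with MI rats, C3 rose and C1qa, C1qb, C1qc and C3ar1 fell. That is 1 of 7 called higher against 11.6% of all genes, and 4 of 7 called lower against 2.01% of all genes. The lower calls numbered 2 to 5 when 1 rat was left out, and 1 in a fit with a block for replicate number. In iCarP+/Light+ compared with Sham rats, the same C2, C3, C3ar1 and C5ar1 were called higher (4 of 7, against 33.5% of all genes) and the C1q chains were called lower (3 of 7, against 33% of all genes). In the order of these comparisons the 7 genes had medians of 1.48, -0.87 and 2.05 on the log2 scale, and all genes tested had medians of -0.06, 0.01 and 0.02. The comparisons share rats, so they are not independent of each other.

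**Figure D1:**
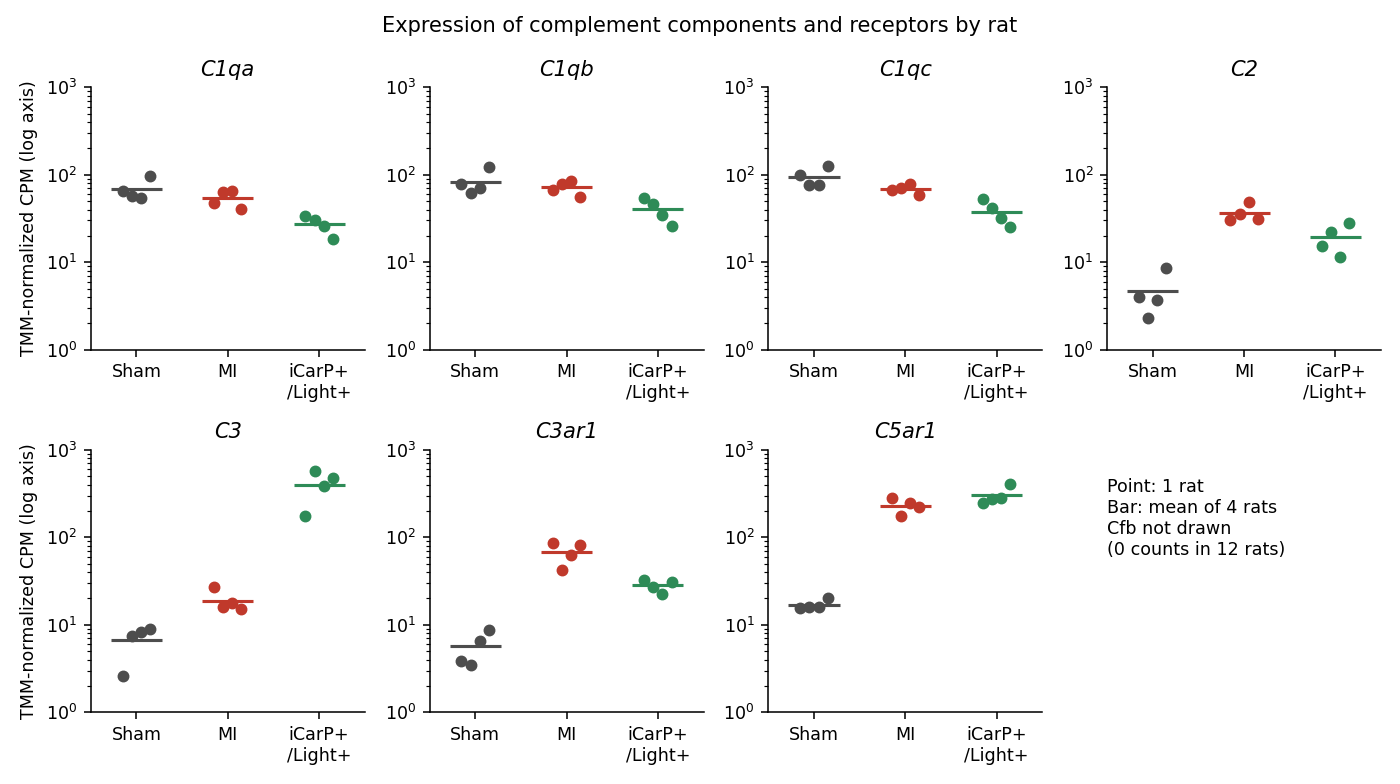
TMM-normalized CPM (vertical log axis) of the 7 measured genes in Sham, MI and iCarP+/Light+ hearts, with 1 point per rat and a bar at the mean of 4 rats. C3 lies between 173 and 575 CPM in the iCarP+/Light+ rats and at 26.8 CPM or below in every other rat, and the C1q chains are lowest in the iCarP+/Light+ rats.

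The share of genes called higher depended on the scaling. When only total counts were used, the median over all genes moved to 0.52, -0.25 and 0.33 in the comparisons of MI with Sham, iCarP+/Light+ with MI and iCarP+/Light+ with Sham. Higher calls then made up 73.5%, 30.7% and 64.7% of all calls, instead of 47.3%, 85.2% and 50.3% with TMM. Under total counts 4 of the 7 genes were called higher and 0 lower in MI compared with Sham rats, where 51% and 18.4% of all genes were. In iCarP+/Light+ compared with MI rats 1 was higher and 5 lower, against 7.97% and 18% of all genes. In iCarP+/Light+ compared with Sham rats 4 were higher and 3 lower, against 44.1% and 24.1%.

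The C1q genes code for the A, B and C chains that assemble into a single hexameric protein. In the rn6 coordinates of the count table they lie next to each other on the minus strand of chromosome 5, C1qb at 155246447 to 155252003, C1qc at 155255005 to 155258392 and C1qa at 155261250 to 155264143. The cluster spans 17697 bases, with gaps of 3001 and 2857 bases between neighbours and no other listed locus inside it. RefSeq promoter sequences of the GRCr8 build were matched to 4 of the 8 genes, C1qa, C1qb, C3 and C3ar1. The 250 bases before the start site were searched on both strands for short forms of motifs of myeloid and inflammatory transcription factors. These were TTCNNNGAA for STAT proteins, TTGCNNAA for C/EBP, GAGGAA for PU.1 and, for NF-kappaB, GGG and CC with NNTTN between them, where N is any base, all chosen with these windows in view. They occurred in 7.67%, 9.22%, 23.3% and 4.36% of 33469 such windows, and a match is a description of letters, not of binding. The windows of C1qa and C1qb, the outer genes of the cluster, whose levels moved together in these data, are shown 5′ to 3′ on the minus strand. The C1qa window (chr5:154419934-154420183) holds a STAT match 90 to 82 bases before the start, and the C1qb window (chr5:154407828-154408077) holds PU.1 matches at 247 to 242 and, on the opposite strand, at 90 to 85, all in capitals.
C1qa: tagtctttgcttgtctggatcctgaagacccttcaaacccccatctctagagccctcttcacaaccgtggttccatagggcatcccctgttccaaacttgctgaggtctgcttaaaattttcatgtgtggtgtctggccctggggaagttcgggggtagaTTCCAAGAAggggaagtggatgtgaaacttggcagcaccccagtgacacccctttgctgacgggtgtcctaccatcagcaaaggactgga
C1qb: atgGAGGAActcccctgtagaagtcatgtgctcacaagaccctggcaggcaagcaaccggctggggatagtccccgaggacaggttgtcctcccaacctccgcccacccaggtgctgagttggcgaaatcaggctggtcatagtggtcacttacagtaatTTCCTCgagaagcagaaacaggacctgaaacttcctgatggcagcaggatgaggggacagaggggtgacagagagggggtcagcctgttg

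C1qa measured 65.1, 57.3, 54.3 and 97.1 CPM in the Sham rats, 47.2, 62.8, 65.4 and 41.1 CPM in the MI rats, and 34.0, 30.03, 26.1 and 18.4 CPM in the iCarP+/Light+ rats. The Sham and MI rats overlapped, and all iCarP+/Light+ rats lay below both groups. The mean was 68.5 ± 19.6 CPM (SD, n = 4) in Sham, 54.1 ± 11.8 CPM in the MI rats and 27.2 ± 6.64 CPM in iCarP+/Light+ rats. In iCarP+/Light+ compared with MI rats the log2 fold change was -0.99 ± 0.23 (SE) with an edgeR adjusted p of 0.0103, a mean 1.99-fold lower. In MI compared with Sham rats it was -0.34 ± 0.22 with an edgeR adjusted p of 0.202. With a block for replicate number, C1qa missed the threshold in iCarP+/Light+ against MI (adjusted p = 0.0825, edgeR).

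C1qb gave 79.3, 61.9, 70.1 and 121 CPM in Sham, 67.6, 77.7, 85.5 and 55.3 CPM in the MI rats and 54.8, 46.8, 34.6 and 26.0 CPM in iCarP+/Light+ rats. The highest iCarP+/Light+ rat, at 54.8 CPM, lay just below the lowest MI rat, at 55.3 CPM. Means were 83.1 ± 26.3, 71.5 ± 13.1 and 40.5 ± 12.8 CPM (SD, n = 4). The log2 fold change of iCarP+/Light+ against MI, -0.82 ± 0.25 (SE), was the closest to the threshold of the C1q chains (adjusted p = 0.0455, edgeR). It stayed past the threshold in 4 of 12 fits that left out 1 rat each. The adjusted p was 0.0616 without Sham rat 1, 0.0556 without Sham rat 3, 0.0745 without MI rat 1, 0.0948 without MI rat 3, 0.107 without MI rat 4, 0.0651 without iCarP+/Light+ rat 2, 0.117 without iCarP+/Light+ rat 4 and 0.0854 without iCarP+/Light+ rat 5 (edgeR). The log2 fold changes of these 12 fits ran from -0.999 to -0.723, so the direction held in each.

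C1qc read 101, 77.3, 77.1 and 125 CPM in Sham, 67.3, 71.5, 78.0 and 58.9 CPM in the MI rats and 52.2, 41.7, 32.1 and 25.1 CPM in iCarP+/Light+ rats. All iCarP+/Light+ rats were below all MI rats, and the ranges of MI and Sham met only at their edges. Means were 95.04 ± 22.9, 68.9 ± 7.997 and 37.8 ± 11.8 CPM (SD, n = 4), and the log2 fold change of iCarP+/Light+ against MI was -0.87 ± 0.22 (SE, adjusted p = 0.0164, edgeR). Without iCarP+/Light+ rat 4 the adjusted p was 0.0528 (edgeR). In MI compared with Sham rats the log2 fold change was -0.46 ± 0.21 (adjusted p = 0.0732, edgeR), which passed the threshold (adjusted p = 0.0467, edgeR) when iCarP+/Light+ rat 1 was left out of the shared fit.

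Against Sham, the treated rats had lower C1q RNA in every chain. The log2 fold changes were -1.33 ± 0.23 for C1qa, -1.03 ± 0.25 for C1qb and -1.33 ± 0.22 for C1qc (SE, edgeR adjusted p of 1.98e-04, 0.00254 and 1.31e-04). No treated rat overlapped a Sham rat in any of these chains. The share of all genes without such overlap was not computed, and 33.5% of them were called higher and 33% lower in this comparison. The direction of the difference between MI and Sham depended on the scaling. Scaled by total counts, the log2 fold changes were 0.23 for C1qa, 0.36 for C1qb and 0.11 for C1qc, with edgeR adjusted p of 0.365, 0.201 and 0.653, where the median of all genes was 0.52. C1qb also changed sign without Sham rat 5, with a log2 fold change of 0.023 (adjusted p = 0.938, edgeR). Against MI, the treated rats were lower in each chain under the same scaling, with log2 fold changes of -1.25, -1.07 and -1.12.

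The chains moved together from rat to rat. Among MI rats the order from high to low was rat 4, 3, 1 and 5 for each chain, and among iCarP+/Light+ rats it was rat 1, 2, 4 and 5 for each chain. Sham rat 5 was the highest Sham rat for all 7 measured genes. After each gene was centred on its own mean over the 12 rats, the log2 CPM of any pair of chains differed by a mean of 0.11 to 0.14 per rat, and those of C1qa and C2 differed by 1.51. Ratios of the counts do not depend on library scaling. C1qa to C1qc was 0.647 to 0.777 in Sham, 0.698 to 0.878 in the MI rats and 0.651 to 0.814 in iCarP+/Light+ rats. C1qb to C1qc was 0.788 to 0.968 in Sham, 0.939 to 1.10 in the MI rats and 1.03 to 1.12 in iCarP+/Light+ rats. The groups overlapped throughout for C1qa to C1qc, and treated and Sham rats did not overlap for C1qb to C1qc, which was 1.24-fold higher in treated than in Sham rats. Between treated and MI rats it was 1.04-fold higher, with overlap (exact permutation p = 0.429).

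The difference between treated and Sham rats had the smallest p that 4 rats against 4 can give in a two-sided exact permutation test, 0.0286, and an adjusted p of 0.0457 over 24 tests. The tests cover 8 ratios in 3 comparisons, and the ratios were chosen after their values had been seen. C1qa to C1qb, 0.775 to 0.926 in Sham and 0.621 to 0.755 in iCarP+/Light+ rats, was 1.22-fold lower in treated than in Sham rats with the same exact p and adjusted p, and treated and MI rats overlapped (exact permutation p = 0.171). For C1qa to C1qc the exact permutation p was 0.314, 0.457 and 0.771 in the 3 comparisons, which does not show the ratio to be equal.

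C3 is the protein on which all complement pathways converge. Its gene is listed at 9721105 to 9747167 on the plus strand of chromosome 9 in rn6. C3 measured 2.60, 7.37, 8.20 and 8.85 CPM in Sham, 26.8, 15.9, 17.8 and 15.0 CPM in the MI rats and 173, 575, 387 and 471 CPM in iCarP+/Light+ rats. The groups were fully separated, and the lowest treated rat was above the highest MI rat. Means were 6.75 ± 2.83 CPM in Sham, 18.9 ± 5.41 CPM in the MI rats and 401 ± 170 CPM in iCarP+/Light+ rats (SD, n = 4). C3 rose with ligation by a log2 fold change of 1.48 ± 0.39 (SE, adjusted p = 0.00486, edgeR). It rose further with treatment, by 4.41 ± 0.41 relative to MI (SE, adjusted p = 2.05e-05, edgeR), which is 21.3-fold in the means. Relative to Sham the treated mean was 59.4-fold higher (log2 fold change 5.89 ± 0.45 SE, adjusted p = 1.95e-07, edgeR).

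C3 took 0.000211% to 0.000711% of all counts in Sham, 0.00189% to 0.00331% in the MI rats and 0.0181% to 0.0567% in iCarP+/Light+ rats. By mean CPM it ranked 10161st of the 15101 genes in Sham, 7109th in the MI rats and 343rd in iCarP+/Light+ rats. The rise with treatment was past the threshold in all 12 fits that left out 1 rat, with log2 fold changes of 4.18 to 4.66, and under the 9 other settings tried, with 4.13 to 4.40.

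The C3 window (chr9:2201340-2201589, minus strand of GRCr8) is shown because C3 had the largest difference of the 7 genes between treated and untreated infarcts. It holds a C/EBP match 104 to 97 bases before the start, in capitals.
C3: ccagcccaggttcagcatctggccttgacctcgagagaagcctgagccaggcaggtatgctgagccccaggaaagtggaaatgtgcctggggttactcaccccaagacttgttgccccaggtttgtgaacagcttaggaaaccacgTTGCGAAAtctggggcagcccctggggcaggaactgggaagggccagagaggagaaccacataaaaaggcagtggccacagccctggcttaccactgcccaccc

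C2 is the serine protease of the classical and lectin pathways. It measured 4.05, 2.32, 3.72 and 8.55 CPM in Sham, 30.1, 35.8, 48.9 and 31.3 CPM in the MI rats and 15.2, 22.0, 11.4 and 28.3 CPM in iCarP+/Light+ rats. The groups did not overlap in any comparison. Means were 4.66 ± 2.70, 36.5 ± 8.59 and 19.2 ± 7.50 CPM (SD, n = 4). C2 rose with ligation (log2 fold change 2.97 ± 0.38 SE, adjusted p = 1.62e-05, edgeR) and was still above Sham in the treated rats (2.05 ± 0.37 SE, adjusted p = 2.96e-04, edgeR). The difference between treated and MI rats was -0.93 ± 0.34 (SE) and missed the threshold (adjusted p = 0.0994, edgeR).

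This call for C2 depended on the fit. The adjusted p was 0.0427 without Sham rat 5 and 0.0462 without iCarP+/Light+ rat 5 in edgeR. It was 0.0176 with total counts in edgeR, 0.0263 in limma-voom and 0.0417 in DESeq2. In data simulated for MI against Sham only, DESeq2 made a larger share of false calls than edgeR or limma-voom. The log2 fold change was between -1.25 and -0.74 in all fits.

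Factor B could not be followed. Cfb lies next to C2 on the minus strand of chromosome 20, and the count table lists it at 4536203 to 4561066 (ENSRNOG00000000419) and at 4536212 to 4542073 (ENSRNOG00000051158). Both rows were at 0 in all 12 rats. The longer locus covers the whole of the shorter and 99.5% of the span of C2, which is listed at 4542340 to 4561152 on the same strand. Whether reads on such shared stretches were left uncounted was not tested, and the C2 counts carry the same limit. Among protein-coding loci that lie inside another on the same strand, 108 of 318 were at 0 in every rat (34.0%), and among the other protein-coding loci 4383 of 21932 were (19.98%). C2, covered as above, held 4187 counts over the 12 rats, and why loci are at 0 was not tested. The 0 of Cfb is given as listed, with no statement on its expression.

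**Figure D2:**
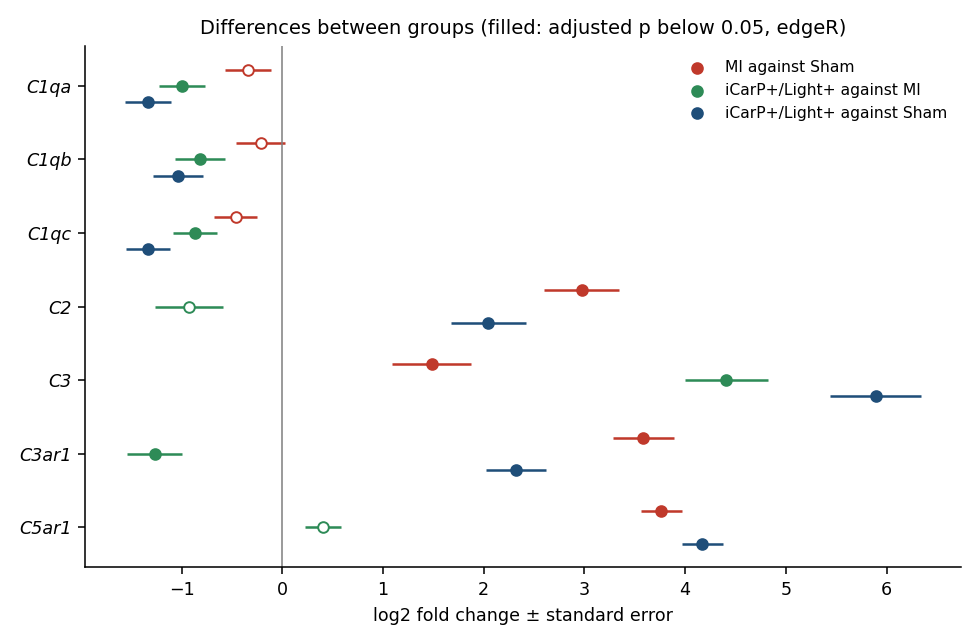
Log2 fold change ± SE (horizontal axis) of the 7 measured genes for MI against Sham, iCarP+/Light+ against MI and iCarP+/Light+ against Sham, with filled points where the edgeR adjusted p is below 0.05. C3 has the largest value against both MI (4.41) and Sham (5.89), and the C1q chains lie below 0 in all comparisons with TMM, although for MI against Sham they lie above 0 (0.11 to 0.36) when scaled by total counts.

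C3ar1 and C5ar1 code for G protein-coupled receptors of myeloid cells. C3ar1 (chromosome 4, 155684029 to 155690869, minus strand, rn6) measured 3.90, 3.48, 6.604 and 8.70 CPM in Sham, 86.1, 42.4, 62.4 and 81.1 CPM in the MI rats and 32.8, 27.1, 22.2 and 30.9 CPM in iCarP+/Light+ rats. The treated rats lay between the other groups without overlap. Means were 5.67 ± 2.45, 68.0 ± 19.9 and 28.3 ± 4.66 CPM (SD, n = 4). C3ar1 rose with ligation by a log2 fold change of 3.59 ± 0.30 (SE, adjusted p = 6.17e-07, edgeR). It was lower in treated than in MI rats, by -1.27 ± 0.27 (SE, adjusted p = 0.00666, edgeR), and remained above Sham, by 2.32 ± 0.29 (SE, adjusted p = 1.47e-05, edgeR). The C3ar1 window (chr4:157756531-157756780, minus strand of GRCr8), shown since C3 and C3ar1 moved in opposite directions in treated compared with MI rats, although both were above Sham in each infarct group, holds an NF-kappaB match on the opposite strand 64 to 55 bases before the start, in capitals.
C3ar1: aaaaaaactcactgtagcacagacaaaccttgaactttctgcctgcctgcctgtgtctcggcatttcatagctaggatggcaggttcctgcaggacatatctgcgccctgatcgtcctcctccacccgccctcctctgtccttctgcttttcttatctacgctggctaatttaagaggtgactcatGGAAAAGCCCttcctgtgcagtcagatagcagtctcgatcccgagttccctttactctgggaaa

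C5ar1 (chromosome 1, 78186776 to 78195328, minus strand, rn6) measured 15.6, 16.0, 16.0 and 20.1 CPM in Sham, 282, 173, 245 and 221 CPM in the MI rats and 250.1, 275, 282 and 411 CPM in iCarP+/Light+ rats. MI and treated rats overlapped, and both were far above Sham. Means were 16.9 ± 2.14, 230 ± 45.6 and 305 ± 72.2 CPM (SD, n = 4). The rise with ligation was 3.76 ± 0.20 on the log2 scale (SE, adjusted p = 4.18e-08, edgeR), the smallest p of the 7 genes. Between treated and MI rats the log2 fold change was 0.40 ± 0.18 (SE, adjusted p = 0.172, edgeR), which passed the threshold in none of the 12 fits without 1 rat (0.15 to 0.52) and in none of the 9 other settings (0.13 to 0.40).

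The proportion of the receptors to each other differed between treated and untreated infarcts. The ratio of C3ar1 to C5ar1 counts was 0.250, 0.218, 0.412 and 0.432 in Sham, 0.306, 0.245, 0.255 and 0.367 in the MI rats and 0.131, 0.0987, 0.0787 and 0.0752 in iCarP+/Light+ rats. The MI rats lay within the range of the Sham rats, and every treated rat was below both. The ratio was 3.09-fold lower in treated than in MI rats (two-sided exact permutation p = 0.0286, adjusted p = 0.0457 over 24 tests). Between MI and Sham rats the exact permutation p was 0.714, which does not show the ratios to be equal.

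Set against the gene of its ligand's precursor, C3ar1 showed the widest shift. The ratio of C3 to C3ar1 counts was 0.667, 2.12, 1.24 and 1.02 in Sham, 0.311, 0.375, 0.285 and 0.185 in the MI rats and 5.28, 21.2, 17.4 and 15.2 in iCarP+/Light+ rats. C3ar1 counts thus exceeded C3 counts in every MI rat and C3 counts exceeded C3ar1 counts in every treated rat. The ratio was 4.12-fold lower in MI than in Sham, and 46.8-fold higher in treated than in MI rats (exact permutation p = 0.0286 and adjusted p = 0.0457 each, no overlap).

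**Figure D3:**
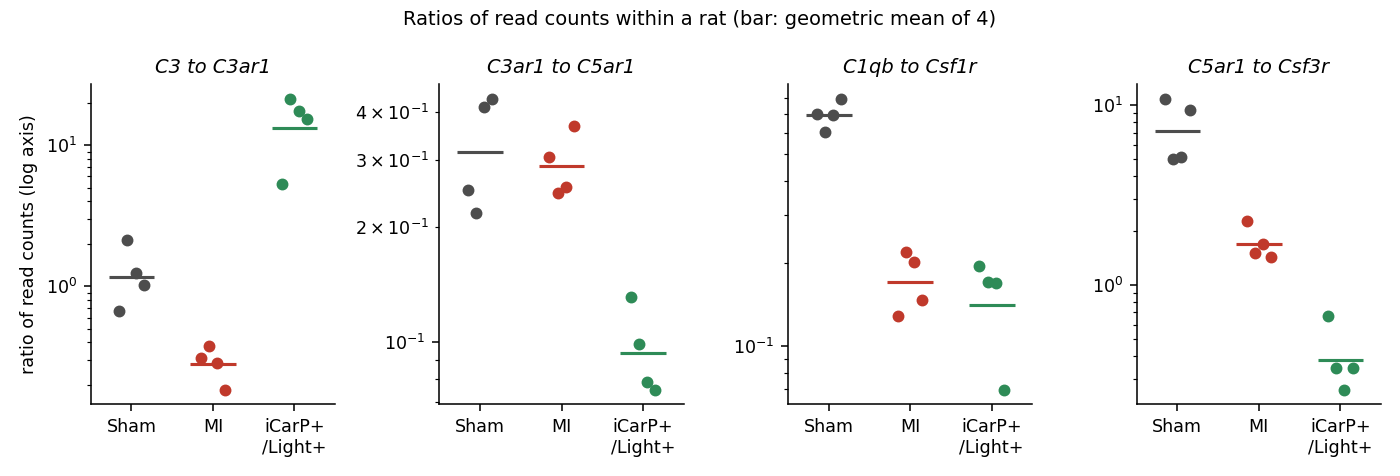
Ratios of read counts within a rat (vertical log axes) for C3 to C3ar1, C3ar1 to C5ar1, C1qb to Csf1r and C5ar1 to Csf3r in Sham, MI and iCarP+/Light+ hearts, with 1 point per rat and a bar at the geometric mean of 4. C3 to C3ar1 is 0.375 or below in the MI rats and 5.28 or above in the treated rats, and the MI and treated rats overlap only in C1qb to Csf1r.

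To compare levels between genes, CPM was divided by the length that the count table lists for each gene. In Sham hearts the C1q chains led, with 87.2 for C1qc, 76.7 for C1qb and 65.4 for C1qa in CPM per kilobase, and their ranges overlapped. C5ar1 followed with 8.68, apart from the genes on either side of it, and then C3ar1 with 2.80, C2 with 1.79 and C3 with 1.302, neighbours that overlapped. In MI hearts C5ar1 led with 118 CPM per kilobase and did not overlap the next gene. C1qb (66.1), C1qc (63.2), C1qa (51.6) and C3ar1 (33.6) overlapped from neighbour to neighbour, and C2 (14.0) and C3 (3.64) each stood apart. In iCarP+/Light+ hearts C5ar1 (156) again stood apart at the top. C3 (77.4) came next, from last place in the other groups, and its range of 33.4 to 111 overlapped that of C1qb (37.4). C1qc (34.7) and C1qa (25.9) overlapped their neighbours above, and C3ar1 (14.0) and C2 (7.38) did not overlap the genes above them.

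**Figure D4:**
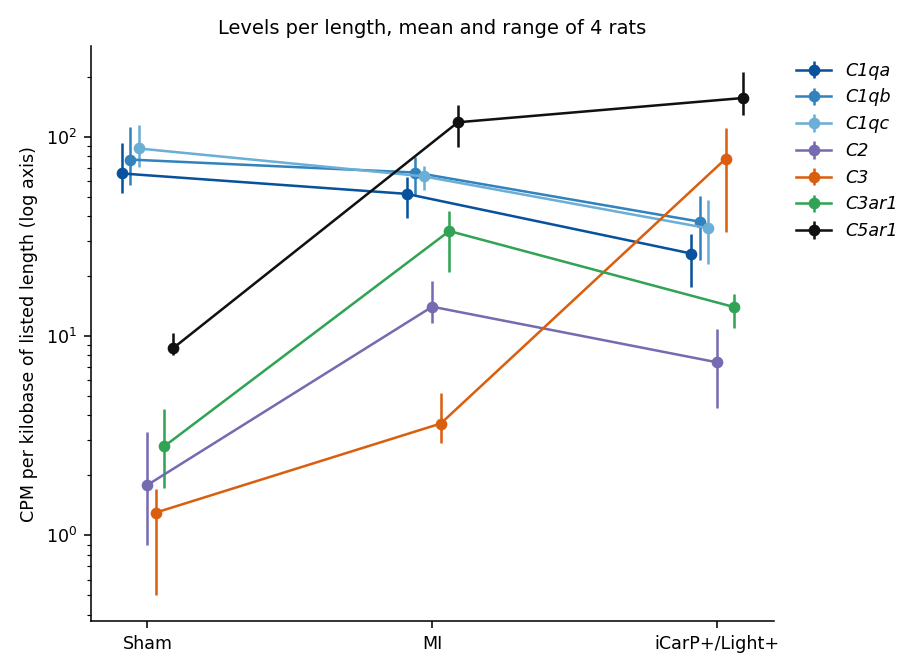
CPM per kilobase of listed length (vertical log axis) of the 7 measured genes in Sham, MI and iCarP+/Light+ hearts, with a point at the mean and a line over the range of 4 rats. The C1q chains lead in Sham (65.4 to 87.2), C5ar1 leads in MI (118) and iCarP+/Light+ (156), and C3 moves from last place in Sham and MI to the next below C5ar1 in iCarP+/Light+ hearts.

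Leukocytes express complement genes and their receptors, so lists of cell type markers were read beside these genes. Their part in the results was not tested. Of 8 macrophage and monocyte markers, 7 rose with ligation (30.2% of all genes did), and their summed CPM was 351 to 558 in Sham, 3765 to 6812 in the MI rats and 2991 to 4941 in iCarP+/Light+ rats. Between treated and MI rats 1 of the 8 rose and 1 fell, where 11.6% and 2.01% of all genes did. Csf1r, the receptor that maintains macrophages, was 117 ± 23.9 CPM in Sham, 419 ± 76.4 in the MI rats and 283 ± 69.9 in iCarP+/Light+ rats (SD, n = 4). The ratio of C1qb to Csf1r counts was 0.603 to 0.795 in Sham, 0.129 to 0.221 in the MI rats and 0.0693 to 0.196 in treated rats. C1qb per Csf1r was thus 4.08-fold lower in MI than in Sham without overlap (exact permutation p = 0.0286, adjusted p = 0.0457), and MI and treated rats overlapped (exact permutation p = 0.629). C3ar1 to Csf1r went from 0.0339 to 0.0653 in Sham up to 0.120 to 0.215 in MI, and was 0.0824 to 0.117 in treated rats, 1.57-fold lower than in MI (exact permutation p = 0.0286, adjusted p = 0.0457).

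Of 4 resident macrophage markers in the table, 3 rose with ligation (30.2% of all genes) and 2 fell in treated compared with MI rats (2.01% of all genes). Those were Mrc1, the mannose receptor (log2 fold change -1.02 ± 0.28 SE, adjusted p = 0.0254, edgeR), and Folr2, a folate receptor (-0.87 ± 0.19 SE, adjusted p = 0.00857, edgeR). Mrc1 overlapped between MI rats (119 to 414 CPM) and treated rats (112 to 137 CPM), and Folr2 did not. Cd163, among those that rose with ligation, stood close to the threshold (adjusted p = 0.0495, edgeR). MI rat 1 was at 137 CPM, the other MI rats at 16.7 to 57.6 CPM and the Sham rats at 16.8 to 34.5 CPM. Lyve1 passed in neither of these comparisons. Timd4 and Cbr2 of that list were not among the symbols of the table. The 4 markers summed to 136 to 192 CPM in Sham, 244 to 740 in the MI rats and 226 to 260 in treated rats.

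All 6 neutrophil markers rose in both steps, where 30.2% of all genes rose with ligation and 11.6% with treatment. They summed to 6.36 to 11.2 CPM in Sham, 324 to 627 in the MI rats and 2184 to 6594 in iCarP+/Light+ rats. Csf3r, the receptor for granulocyte colony-stimulating factor, rose by 5.76 ± 0.38 on the log2 scale with ligation and by a further 2.67 ± 0.31 with treatment (SE, edgeR adjusted p of 1.18e-07 and 9.17e-05). C5ar1, which neutrophils and monocytes carry, had 4.98 to 10.8 counts per Csf3r count in Sham, 1.43 to 2.25 in the MI rats and 0.260 to 0.670 in treated rats. The groups did not overlap, and the ratio was 4.45-fold lower in treated than in MI rats (exact permutation p = 0.0286, adjusted p = 0.0457).

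Hepatocyte markers were low throughout, at a summed 12.4 to 18.4 CPM in Sham, 1.53 to 3.80 in the MI rats and 1.83 to 3.32 in treated rats. Of the 5 in the table only Ttr was tested, and it fell with ligation (adjusted p = 1.33e-05, edgeR). Cardiomyocyte markers fell in 6 of 6 with ligation, fibroblast markers in 5 of 6 and endothelial markers in 4 of 4 tested, where 33.6% of all genes did, with Cldn5, a defining endothelial gene, listed at 0 in all rats. Between treated and MI rats, 0 of the 6 cardiomyocyte, 1 of the 6 fibroblast (Dcn, higher) and 0 of the 4 endothelial markers passed, where 11.6% of all genes were called higher and 2.01% lower. Of 5 lymphocyte markers 2 were called higher with ligation, near the 30.2% of all genes, and 1, Cd3e, lower with treatment (2.01% of all genes). Red blood cell markers fell in 5 of 6 with ligation (33.6% of all genes), and 4 of 6 were higher in treated than in MI rats (11.6% of all genes).

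Other genes of the cascade were read from a list of 43 symbols, 40 of which were in the table and 28 were tested. With ligation 9 of the 28 were called higher and 8 lower, shares close to the 30.2% and 33.6% of all genes, and their median log2 fold change was 0.09. Under total counts alone 16 were called higher and 7 lower, against 51% and 18.4% of all genes. In treated compared with MI rats 5 were called higher and 2 lower (11.6% and 2.01% of all genes), with a median of 0.25, or 4 and 3 under total counts alone (7.97% and 18% of all genes). Against Sham, 12 were higher and 11 lower in treated rats (33.5% and 33% of all genes), with a median of -0.10.

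Of 8 initiators of the cascade tested, 1 rose and 4 fell with ligation, where 30.2% and 33.6% of all genes did. Masp1, a protease of the lectin pathway, fell from 62.0 ± 7.65 CPM in Sham to 6.98 ± 4.15 CPM in MI (SD, n = 4), a log2 fold change of -3.15 ± 0.40 (SE, adjusted p = 1.63e-05, edgeR). Colec11, a lectin that recognises sugars, fell from 13.7 to 19.9 CPM in Sham to 0.106 to 0.809 CPM in MI rats, a range that reaches below the floor. Fcnb, a ficolin of myeloid cells, rose from 3.03 ± 1.95 to 65.9 ± 23.97 CPM (log2 fold change 4.45 ± 0.45 SE, adjusted p = 2.68e-06, edgeR). The scavenger receptor Colec12 was the only initiator gene to pass between treated and MI rats, and it fell by 1.21 on the log2 scale (SE 0.23, adjusted p = 0.00338, edgeR).

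Of 4 C4 and alternative pathway genes, Cfp and Cfd were called higher with ligation, where 30.2% of all genes were, and none passed between treated and MI rats. Cfd, the gene of the protease factor D, overlapped between MI and Sham and stood close to the threshold (adjusted p = 0.0488, edgeR), with MI rat 4 at 45.3 CPM, the other MI rats at 12.3 to 17.2 CPM and the Sham rats at 7.44 to 17.4 CPM. Properdin, encoded by Cfp and a stabiliser of the alternative pathway enzyme, rose from 11.0 ± 2.19 to 70.6 ± 15.7 CPM with ligation (log2 fold change 2.68 ± 0.24 SE, adjusted p = 9.51e-07, edgeR). Terminal components were scarce apart from C7, which fell from 523 ± 65.7 CPM in Sham to 92.8 ± 25.3 CPM in MI (log2 fold change -2.49 ± 0.38 SE, adjusted p = 6.96e-05, edgeR). C5, the precursor of C5a, stayed near the floor at 0 to 0.406 CPM over the 12 rats and was not tested.

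The remaining receptors rose with C3ar1 and C5ar1 after ligation in 4 of 5 cases, against 30.2% of all genes. Itgb2, the shared chain of the complement receptor integrins, went from 22.7 ± 4.47 to 355 ± 55.0 CPM (log2 fold change 3.96 ± 0.23 SE, adjusted p = 5.64e-08, edgeR). Vsig4, a macrophage receptor for C3 fragments, was at 0 to 0.369 CPM in Sham and 0.809 to 2.07 CPM in MI (adjusted p = 0.00627, edgeR). In treated compared with MI rats 2 of 5 rose, against 11.6% of all genes, and none fell. Itgax, the chain of complement receptor CR4, rose from 68.0 ± 19.0 to 170 ± 24.1 CPM (log2 fold change 1.32 ± 0.18 SE, adjusted p = 3.54e-04, edgeR). C5ar2, the other C5a receptor, rose from 7.76 ± 1.06 to 18.1 ± 6.10 CPM (1.22 ± 0.27 SE, adjusted p = 0.00765, edgeR).

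Regulators that restrain complement were read last. Among soluble regulators, 3 of 4 tested fell with ligation, against 33.6% of all genes. Vtn, encoding vitronectin, fell with ligation from 84.8 ± 9.26 to 13.1 ± 2.12 CPM, and Clu, encoding clusterin, fell from 816 ± 53.8 to 382 ± 119 CPM (log2 fold changes -2.69 ± 0.24 and -1.10 ± 0.25 SE, edgeR adjusted p of 9.91e-07 and 0.00167). Among membrane regulators, 3 of 4 were higher in treated than in MI rats, against 11.6% of all genes. Cd55, which dismantles C3-splitting enzymes on cell surfaces, rose from 14.4 ± 3.92 to 104 ± 40.9 CPM (log2 fold change 2.84 ± 0.29 SE, adjusted p = 3.37e-05, edgeR). Cd59, which blocks the membrane attack complex, rose from 231 ± 22.8 to 385 ± 101 CPM (0.74 ± 0.17 SE, adjusted p = 0.0100, edgeR), and Cr1l, a regulator related to Cd55, rose by 0.30 ± 0.09 (adjusted p = 0.0396, edgeR).

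**Figure D5:**
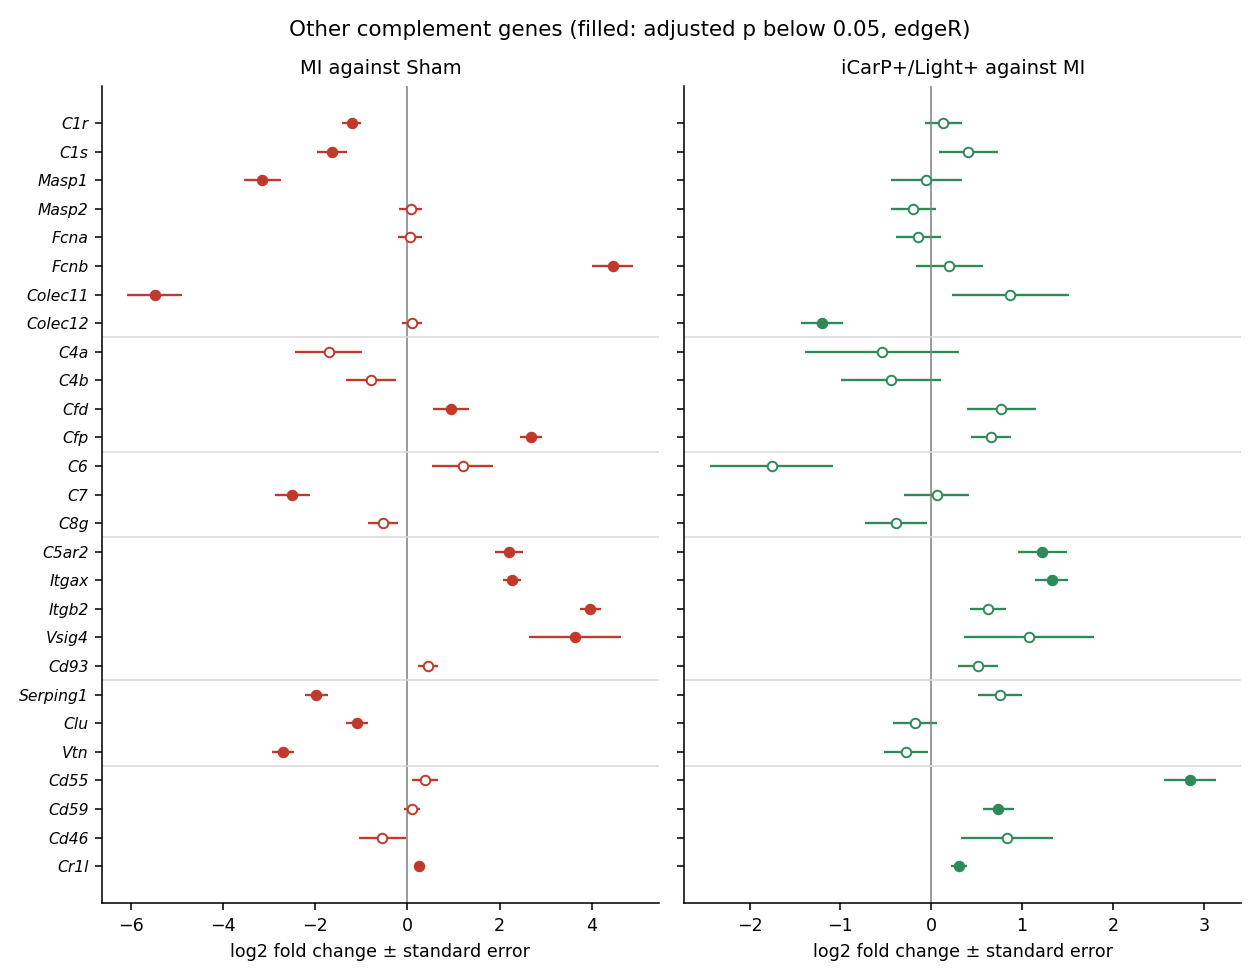
Log2 fold change ± SE (horizontal axes) of 27 other tested complement genes for MI against Sham and iCarP+/Light+ against MI, grouped by grey lines into initiators, C4 and alternative pathway, terminal components, receptors, soluble regulators and membrane regulators, with filled points where the edgeR adjusted p is below 0.05. Ligation gives 8 filled points above 0 and 8 below, and treatment gives 5 above and 1 below, with Cd55 highest at 2.84.

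Genes with the most similar profiles were ranked by the mean absolute difference of centred log2 CPM over the 12 rats, among 10715 protein-coding genes with a mean of at least 5 CPM, the complement genes followed here left out. C5ar1 had the closest partner of the 7 genes, the cation channel gene Trpv2 (0.10), followed by Itgb2 (0.17) and the integrin activator gene Fermt3 (0.17). Outside their own group, where they were closest to each other, the C1q chains had their nearest partners in Cd1d1 and Man1c1, with Cd1d1 at 0.21 from C1qa and 0.17 from C1qc and Man1c1 at 0.19 from C1qb. Tmem176a was also close to C1qa (0.24), Apip and Mrps11 to C1qb (0.23 and 0.24) and Mettl17 to C1qc (0.20). C2 was nearest to the genes of the endosomal RNA sensors Tlr8 (0.30) and Tlr7 (0.30) and to Mnda (0.31). C3ar1 was nearest to the lectin gene Clec4a1 (0.32), the clock gene Arntl (0.33) and the lysosomal protease gene Lgmn (0.33). C3 had the most distant partners, Mxd1 (0.39), the triglyceride synthesis gene Dgat2 (0.40) and the chemokine gene Ccl4 (0.43), with a median distance of 2.26 over all candidates.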

How the data were processed

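Male Sprague-Dawley rat left ventricle of 12 animals was sequenced, 4 each from Sham, MI and iCarP+/Light+. The authors deposited whole-number read counts per gene for each rat, not normalized. Their processing notes name HISAT2, featureCounts and the rn6 build. Versions, annotation release and strand setting are not given in the sources used here.

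Counts were tested with edgeR 4.0.16 in R 4.3.3. Genes were kept by filterByExpr (minimum count 10), scaled by TMM and fitted with 1 mean per group over the 12 rats, and Benjamini-Hochberg adjustment ran over 15101 genes. The SE of a log2 fold change was derived from that test, as its absolute value divided by the square root of the F statistic. It therefore restates the test and is not a separate measure of precision. Ratios of counts were compared on the log scale by two-sided exact permutation tests over 70 arrangements. The edgeR p-values judge a group difference against the spread between these rats, and the permutation p-values rank it among these arrangements. No pair within a group was a copy, since the chi-square per gene was 14.8 to 119 over 18 pairs where counting noise gives about 1.

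The members, the 6 sub-lists of other complement genes, the 9 marker lists and the motifs were chosen with earlier results of these data known. From the complement list, the text names the 4 highest and 4 lowest called log2 fold changes in MI against Sham and in iCarP+/Light+ against MI, and the 3 genes of highest mean level, and 1 gene that the rule takes is not reported here. From each marker list the rule takes the 2 genes of highest level, of which only those beside a result are printed. Folr2, Cd163, C5, Cfd and Cr1l were named after their values were seen. Likeness used log2 CPM with a prior count of 2. Alternatives were DESeq2 size factors, total counts, DESeq2 1.42.0, limma-voom (limma 3.58.1), other filters, no mitochondrial genes, rats of the compared groups only, a minimum fold change of 2, a replicate block and each rat left out. The fits were tested on simulated data. Promoter windows are RefSeq's, GRCr8.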

Additional observations from a re-analysis of the deposited data

Results flagged for a closer look

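Among 90 sets of 4 rats, made of a gene or ratio in a group, 4 held a rat far from the others, where about 4.5 are expected by chance. On the log2 scale, the gap of that rat to its nearest neighbour was divided by the range of the group. The result exceeded Dixon's critical value for 4 samples in each case and is given in parentheses. The CPM and ratios printed beside it are not on the log2 scale. Sham rat 1 had the lowest C3 of its group, at 2.60 CPM with the others at 7.37 to 8.85 CPM (0.849). Sham rat 5 had the highest C5ar1, at 20.1 CPM with the others at 15.6 to 16.0 CPM (0.899). In the iCarP+/Light+ group, rat 5 had the highest Fcnb, at 112 CPM with the others at 60.7 to 65.1 CPM (0.888). The same rat had the lowest ratio of C1qb to Csf1r counts, 0.0693 with the others at 0.169 to 0.196 (0.860).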

How the results depend on the processing

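Directions and calls held under most settings. Of single-gene values, 180 kept their direction and side of the threshold under the settings that kept all rats. There, 3 turned sign, 3 lost the call and 3 gained it. With 1 rat left out, 239 kept both, 1 turned sign, 9 lost the call and 3 gained it. The calls lost were all of C1q chains in iCarP+/Light+ against MI. With total counts alone, the sign turned in MI against Sham for C1qa (0.23), C1qb (0.36) and C1qc (0.11), and without Sham rat 5 for C1qb, whose values with 1 rat left out ran from -0.33 to 0.023. In MI against Sham, total counts alone gave 16 other complement genes called higher, 7707 of all genes higher and 2776 lower. A fold change of 2 or more left 2494 and 3139 of all genes there, and 2884 and 3170 in iCarP+/Light+ against Sham.

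In iCarP+/Light+ against MI a fold change of 2 or more left 1 of the 7 genes called lower, 3 other complement genes higher and 1 lower, and 960 of all genes higher and 86 lower. Genes called lower numbered 457 with DESeq2's size factors, 2722 with total counts alone, 763 in DESeq2 and 475 where every sample had to reach 10 counts, against 304 with the settings of the report. With 1 rat left out, the 7 genes gave 0 to 1 called lower in MI against Sham (1 without iCarP+/Light+ rat 1) and 2 to 5 in iCarP+/Light+ against MI (2 without iCarP+/Light+ rat 4). All genes in iCarP+/Light+ against MI then gave 1125 to 2066 higher, fewest without iCarP+/Light+ rat 5, and 157 to 438 lower, with 164 without MI rat 1 and 157 without iCarP+/Light+ rat 2. The causes were not tested.

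Rats with the same replicate number are different animals, and their deviations from the group means correlated at -0.15 to 0.07, so the numbers do not pair them. A fit with a replicate block gave 1 of the 7 genes called lower in iCarP+/Light+ against MI instead of 4, 3 other complement genes higher and 1 lower, and 1157 of all genes higher and 141 lower. Adjusted p with the block was 0.0825 for C1qa, 0.179 for C1qb and 0.0761 for C1qc (edgeR), with log2 fold changes of -0.98, -0.82 and -0.91.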
